A study of Mus musculus with 4 samples.

Results

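Tceal7 and its relatives form a group of small genes that sit close together on the mouse X chromosome. The genes described here are Tceal7, Tceal1, Tceal8, Tceal3, Bex1, Bex2 and Bex4, taken by their symbols from the deposited expression tables. Of these 7 symbols, 5 were listed among the 13824 gene symbols, through 6 of the 36231 listed transcripts, and Tceal3 and Bex4 were not analysed here. Tceal7 was chosen because it was among the genes with the lowest siMEF2A levels relative to scrambled in the comparison described below, so its own difference is given as a description with no test. Its relatives were chosen by name. Of the other genes of the TCEAL and BEX families, Tceal5, Tceal9 (listed under its older symbol Wbp5) and Bex3 (listed as Ngfrap1) were also in the tables and are given beside them.

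RNA was sequenced from C2C12 cells, a mouse myoblast line that fuses into myotubes when serum is lowered. In the siMEF2A group, 2 libraries came from cells transfected with 30 nM of an siRNA against Mef2a, the gene of a MEF2 transcription factor. In the scrambled group, 2 libraries came from cells transfected in the same way with an siRNA of scrambled sequence. Lipofectamine carried the siRNA in both groups, and all cells then differentiated for 48 h in medium containing 2% horse serum. Nothing in the labels says that the libraries of a group are separate cultures, and a p-value therefore speaks only of library-to-library spread, possibly technical. The comparison asks which genes respond to an siRNA against Mef2a in differentiating muscle cells, and here whether the lower level of Tceal7 was shared by its relatives.

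TCEAL proteins are small and are named for their resemblance to the transcription elongation factor S-II, while BEX (brain expressed X-linked) proteins are small adaptors, several of which bind signalling proteins such as the p75 neurotrophin receptor. Both families arose in mammals and lie next to each other on the X chromosome. In mouse skeletal muscle, Tceal7 has been described as a target of the myogenic factors, basic helix-loop-helix proteins that bind E-boxes (CANNTG), and as a brake on myoblast proliferation. MEF2 factors act together with these proteins on many muscle promoters.

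Mef2a itself was at 12.7 and 14.3 FPKM (fragments per kilobase, normalised for library size) in siMEF2A and at 25.8 and 32.2 FPKM in scrambled (log2 fold change -1.05, SE 0.15, limma adjusted p = 2.96e-05). Of 8 markers of differentiated muscle, 7 were listed, all at a mean of at least 1 FPKM. Their summed level was 540 and 583 FPKM in siMEF2A and 1096 and 1204 FPKM in scrambled. Of 6 markers of undifferentiated myoblasts 5 were listed, with sums of 48.2 to 52.8 FPKM in siMEF2A and 38.8 to 46.6 FPKM in scrambled. These markers did not move together. Cd34 was at 25.4 and 30.5 FPKM in siMEF2A and 17.5 and 23.3 FPKM in scrambled, and Pdgfra was also higher without overlap between groups. Myf5 was lower without overlap, and Mki67 and Ccnb1 overlapped. Of 8 neuronal markers 2 were listed, the stathmin gene Stmn2 at 77.7 and 87.2 FPKM in siMEF2A and 69.0 and 71.1 FPKM in scrambled, and the neurofilament gene Nefl below 1 FPKM in every library. Of 7 markers of endothelial, blood and fat cells 0 were listed. The summed muscle markers were thus lower together with Tceal7, and their part in its difference was not tested. In bulk RNA, fewer cells of a type and less RNA per cell cannot be told apart.

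Tceal7 (ENSMUSG00000079428) was listed with 1 of its 2 annotated transcripts, ENSMUST00000113116, which covers chromosome X from 136224041 to 136226100 on the plus strand of mm10. The spliced transcript is 971 bases long with a coding length of 294 bases. It was at 1.91 and 1.59 FPKM in siMEF2A, against 9.57 and 7.96 FPKM in scrambled. The groups lay far apart and the libraries of each group were close to each other. The mean was 1.75 ± 0.230 FPKM in siMEF2A and 8.77 ± 1.14 FPKM in scrambled (SD, n = 2 each), so that siMEF2A held 20.0% of the scrambled level. On the log2(FPKM + 1) scale the difference, siMEF2A minus scrambled, was -1.83. That scale understates the change of genes at low FPKM, and with a pseudocount of 0.1 the difference was -2.26. Among 11824 genes tested, 10 had a log2 fold change as low as this or lower, Tceal7 included. In the scrambled cells 50.5% of all gene symbols had a lower mean level than Tceal7, and in the siMEF2A cells 20.3%.

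**Figure D1:**
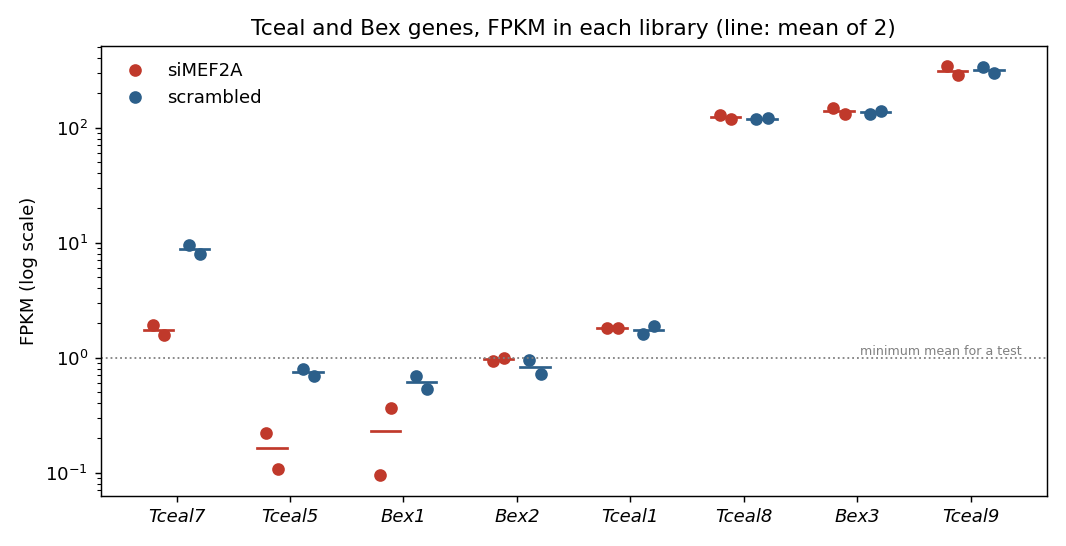
FPKM of the 8 listed Tceal and Bex genes on a log axis, with siMEF2A libraries in red left of scrambled libraries in blue; points are libraries and lines the mean of 2, and the dotted line marks the minimum mean for a test. Tceal7, Tceal5 and Bex1 have both siMEF2A points below both scrambled points, while the points of the other 5 genes overlap.

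Of the 7 other family genes in the tables, Tceal1, Tceal8, Bex2, Tceal9 and Bex3 overlapped between groups, while Tceal5 and Bex1 were lower in siMEF2A without overlap, both at a low level. Over all genes tested, which have a mean of at least 1 FPKM, 9.13% were lower and 18.8% higher without overlap. No such share was taken for genes below that level, such as Tceal5 and Bex1, so this split is only a description. Tceal1, Tceal8, Bex1 and Bex2, the 4 relatives among the chosen symbols, come first. By level they fell into an abundant gene, Tceal8, a gene just above the minimum for a test, Tceal1, and 2 genes below it, Bex1 and Bex2. Of the 2 that could be tested, 0 passed in either direction (limma adjusted p under 0.05) and 0 had an unadjusted p under 0.05, beside 1.73% of all genes tested that were called, 0.406% higher and 1.32% lower. With the fit without a filter on low values, all 4 could be tested and again 0 of them passed, although Tceal5, described further on, did. In that fit 1.33% of 13798 genes were called, 0.21% higher and 1.12% lower. Bex1 had an unadjusted p of 0.00593 and Bex2 one of 0.394. The median log2 fold change of the 4 relatives was 0.034, close to the median of 0.045 over all genes tested.

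Tceal8 was among the abundant genes of these cells, at 128 and 118 FPKM in siMEF2A and 118 and 122 FPKM in scrambled. The groups overlapped, and 95.1% of gene symbols had a lower mean in siMEF2A and 94.8% in scrambled. The mean was 123 ± 7.08 FPKM in siMEF2A and 120.04 ± 2.24 FPKM in scrambled (SD, n = 2 each). Its difference on the log2 scale was 0.033 with an SE of 0.17 (limma adjusted p = 1.00), and the 95% interval ran from -0.31 to 0.38. Of its 4 annotated transcripts 2 were listed. The longer one, of 1250 bases, made up 98.2% of the gene's FPKM in siMEF2A and 97.9% in scrambled. It was at 103% of its scrambled level, and the shorter one, of 417 bases, at 86.4%. Neither transcript passed in the fit over 23601 transcripts (limma adjusted p = 1.00 for both), in which 0.225% were called, 0.0297% higher and 0.195% lower.

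Tceal1, also known as pp21 or SIIR, encodes a nuclear phosphoprotein described in human cells as a modulator of transcription. It was at 1.79 and 1.82 FPKM in siMEF2A and at 1.61 and 1.88 FPKM in scrambled. The siMEF2A values lay between the scrambled ones. On the log2 scale the groups differed by 0.035, with an SE of 0.15 and a 95% interval from -0.26 to 0.33 (limma adjusted p = 1.00). Its 1 annotated transcript, of 2803 bases, was the one listed. In the siMEF2A libraries the range of Tceal7 enclosed that of Tceal1, whereas in the scrambled libraries Tceal7 was far above it.

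Bex1 and Bex2 were both under the minimum mean of 1 FPKM. Bex1, whose protein binds the p75 neurotrophin receptor, was at 0.0948 and 0.362 FPKM in siMEF2A and 0.691 and 0.530 FPKM in scrambled. Both siMEF2A values were below both scrambled values, at 37.4% of the scrambled mean, but the siMEF2A libraries also differed widely from each other. In the fit without a filter on low values its log2 fold change was -0.40 (SE 0.12), which did not pass (limma adjusted p = 0.221). It did pass there with robust moderation (limma adjusted p = 0.0197) and without siMEF2A replicate 2 (0.00215), while leaving out siMEF2A replicate 1 gave an adjusted p of 0.836. In such fits the remaining library of that group is assumed to vary like the other group. Bex2, known in human cells as a partner of LMO2, was at 0.941 and 0.998 FPKM in siMEF2A and 0.952 and 0.719 FPKM in scrambled. The groups overlapped, and the log2 difference of 0.10 (SE 0.12) did not pass without a filter (limma adjusted p = 1.00).

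The values of the 2 BEX genes are uncertain for reasons of sequence. The listed Bex1 transcript shares 98.9% identity with a transcript of Bex4 over 265 bases, and Bex2 shares 99.5% identity with Bex3 over 222 bases, so reads there fit both genes. Bex3 had over 100 times the FPKM of Bex2 in each group. A second annotated Tceal7 transcript, which was not listed, starts within Bex1 on the opposite strand and overlaps its exons by 98 bases. The authors' table gives both genes 1 joint locus, from 136213972 to 136226100, and whether strand was used in counting is not stated, so reads in the overlap cannot be assigned with certainty. The listed Tceal7 transcript has 0 bases in common with Bex1 exons. In a search against all annotated transcripts, neither it nor those of Tceal1, Tceal8, Tceal5 and Tceal9 matched another gene at 95% identity or more over at least 50 bases.

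Of the 3 further family genes in the tables, Tceal9 and Bex3 overlapped between groups and Tceal5 did not. Tceal9, whose protein binds WW domains, was the most abundant of the family, at 341 and 285 FPKM in siMEF2A and 336 and 297 FPKM in scrambled (log2 fold change -0.021, SE 0.19, 95% interval -0.42 to 0.37, limma adjusted p = 1.00). Bex3, whose protein is a death-promoting partner of the p75 neurotrophin receptor, was at 149 and 131 FPKM in siMEF2A and 133 and 140.2 FPKM in scrambled (log2 fold change 0.034, SE 0.17, limma adjusted p = 1.00). Its 4 transcripts were all listed, at 87.8% to 108% of their scrambled levels, and 0 of them passed. Neither gene differed beyond the spread between libraries.

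Tceal5 was lower in siMEF2A, at low FPKM. It was at 0.219 and 0.106 FPKM in siMEF2A and at 0.796 and 0.696 FPKM in scrambled. Both siMEF2A values were well below both scrambled values, and the mean was 21.8% of the scrambled mean, near the 20.0% of Tceal7. With a mean under 1 FPKM it was not among the genes tested. In the fit without a filter on low values it fell, with a log2 fold change of -0.59 (SE 0.11, limma adjusted p = 0.0119), where 1.12% of genes were called lower. With each library left out in turn, the limma adjusted p ran from 0.000204 to 0.0130, but such a fit has 1 library in a group and takes the spread from the other group and the prior, so it is a weak check. It was lost in that fit under quantile normalization (limma adjusted p = 0.0663) and without an intensity trend (0.0970). Its closest relatives by transcript sequence, Tceal3 at 85.8% identity over 755 bases and Tceal6 at 84.4% over 852 bases, were not analysed here.

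Summed over the 8 listed genes, the family stood at 623 and 538 FPKM in siMEF2A and at 601 and 571 FPKM in scrambled. Tceal9, Bex3 and Tceal8 made up 99.2% and 99.1% of that sum in the siMEF2A libraries and 97.7% and 97.9% in the scrambled ones. The share of Tceal7 was 0.307% and 0.295% in siMEF2A and 1.59% and 1.39% in scrambled. The family total therefore overlapped between groups while the small share of Tceal7 did not. By level the order was Tceal9, Bex3, Tceal8 in both groups, with no overlap between neighbours in this order. In scrambled, Tceal7, Tceal1, Bex2, Tceal5 and Bex1 followed, and the ranges of Bex2 and Tceal5 overlapped. In siMEF2A, the ranges of Tceal7 and Tceal1 overlapped, as did those of Tceal5 and Bex1, with Bex2 between the pairs.

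The 3 genes with lower siMEF2A values lie next to each other among the listed genes. Relative to the start of Tceal7, Bex1 starts at -8.53 kb and Tceal5 at -20.2 kb, and both are on the minus strand, pointing away from it. On the other side, Tceal9 starts at 21.04 kb and Bex3 at 46.2 kb, on the same strand as Tceal7. The next family gene beyond Tceal5, Tceal8, starts at -51.7 kb. Within 1 Mb on either side, 18 genes other than Tceal7 were listed, and the groups did not overlap for 6 of them. Armcx5, Gprasp1, Nxf3 and BC065397 were higher without overlap, as were 18.8% of all genes tested. Tceal5 and Bex1 were lower without overlap. Both were under 1 FPKM and not tested, so the 9.13% of genes tested that were lower without overlap is no measure for them. Of the 13 neighbours that could be tested 0 passed in limma, and 0 had an unadjusted p under 0.05. With 1.73% of all genes called, a count of 0 among so few is no result about the neighbours. Apart from Tceal5 and Bex1, the log2 fold changes of the neighbours ran from -0.034 for Arxes2 to 0.13 for Gprasp1. Gprasp1, Bhlhb9 and Armcx5, genes of the GASP and ARMCX group that share this stretch of the chromosome, were at 111%, 108% and 107% of their scrambled levels.

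**Figure D2:**
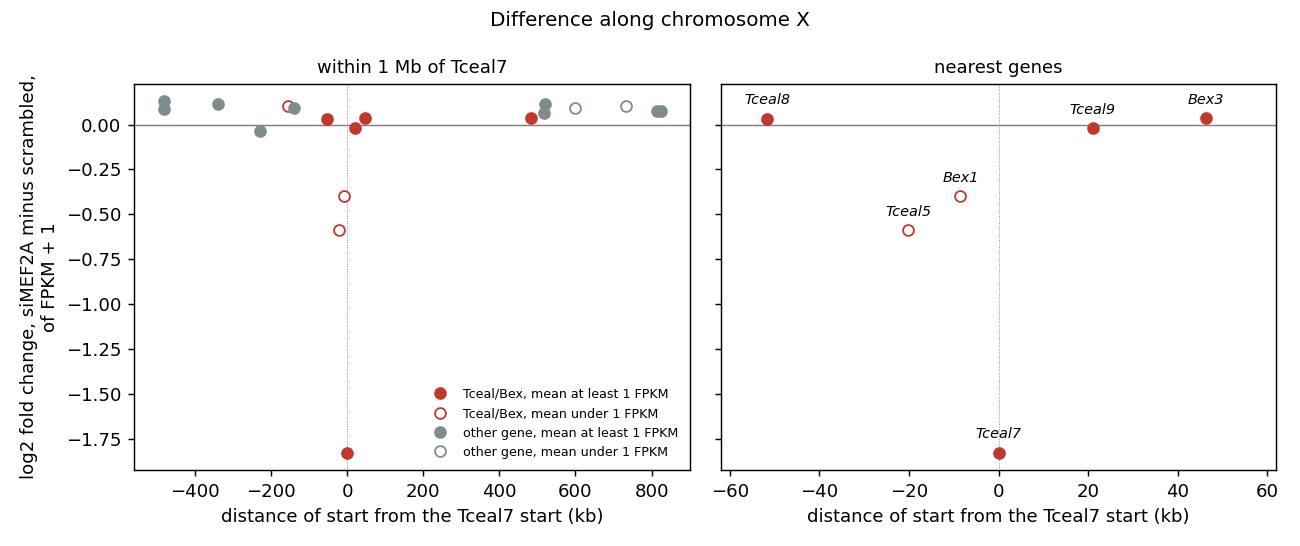
Log2 fold change (siMEF2A minus scrambled, of FPKM + 1) of the listed genes on chromosome X against the distance of their start from that of Tceal7 in kb, for all genes within 1 Mb (left) and for the nearest genes (right); open points had a mean under 1 FPKM. Tceal7 at -1.83, Tceal5 at -0.59 and Bex1 at -0.40 stand below the other genes, which lie near 0.

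The sequences before the start sites of the lower genes, and of Tceal9 as a neighbour whose groups overlapped, are shown because 2 of them resemble each other. They are the 250 bases before the start, from RefSeq on build GRCm38.p6 (the sequence of mm10), and all 12 family symbols were matched there. Of the 3 windows given for Tceal5, the one whose start is nearest to the listed transcript is used. The windows are chrX:136223791-136224040, plus strand, chrX:136203885-136204134, minus strand, chrX:136215514-136215763, minus strand, and chrX:136244830-136245079, plus strand. Each is written from its 5′ end on the strand of the gene, and capitals mark every E-box (CANNTG), which reads as an E-box on both strands.
Tceal7: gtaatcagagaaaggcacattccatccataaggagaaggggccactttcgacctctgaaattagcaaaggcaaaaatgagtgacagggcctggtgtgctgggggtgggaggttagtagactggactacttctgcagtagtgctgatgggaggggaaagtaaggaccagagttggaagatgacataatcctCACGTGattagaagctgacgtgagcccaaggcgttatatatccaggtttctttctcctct
Tceal5: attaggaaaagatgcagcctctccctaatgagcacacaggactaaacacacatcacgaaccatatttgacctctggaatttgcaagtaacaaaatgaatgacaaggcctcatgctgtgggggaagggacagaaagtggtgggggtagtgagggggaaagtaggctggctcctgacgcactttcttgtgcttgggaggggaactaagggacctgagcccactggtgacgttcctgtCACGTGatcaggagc
Bex1: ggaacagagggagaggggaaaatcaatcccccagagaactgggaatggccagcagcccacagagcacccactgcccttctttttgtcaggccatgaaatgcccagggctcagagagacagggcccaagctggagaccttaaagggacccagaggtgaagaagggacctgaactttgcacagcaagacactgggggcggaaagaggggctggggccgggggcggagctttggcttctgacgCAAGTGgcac
Tceal9: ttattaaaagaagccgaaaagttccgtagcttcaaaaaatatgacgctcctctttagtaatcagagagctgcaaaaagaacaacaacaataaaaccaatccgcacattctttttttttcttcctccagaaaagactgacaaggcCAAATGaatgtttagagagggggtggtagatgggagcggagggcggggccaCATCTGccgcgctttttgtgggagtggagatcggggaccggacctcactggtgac

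The Tceal7 and Tceal5 windows had their best local alignment over 56 aligned bases, of which 47 were identical (83.9%), and this alignment holds gaps. Positions opposite a gap are left out of the lengths and percentages of all these window pairs. Among 88 pairs of windows of different family genes this was the third best alignment by score, after the nearly identical pairs Bex1 with Bex4 (98.8% over 240 bases) and Bex2 with Bex3 (99.3% over 149 bases). The next was Tceal5 with Tceal9, whose groups overlapped, at 80.8% over 52 bases. The Tceal7 and Tceal5 windows both hold the E-box CACGTG, which overlaps no other E-box in them, 60 bases before the start of Tceal7 and 15 bases before that of Tceal5. In both windows this E-box lies downstream of the 56 aligned bases, so it is not part of that alignment. CACGTG occurred in 6.02% of 32851 windows of this length, and any E-box in 66.2%. It was also present in windows of Bex4, Tceal3 and Tceal6, whose levels were not analysed here. The Bex1 window holds 1 E-box, the Tceal9 window holds 2 and the Tceal8 window holds 0. Of the Tceal8 window, however, 91 bases lie in annotated exons, and the longer listed Tceal8 transcript starts inside it. That window is therefore not the full stretch before the start of this transcript. The Bex1 window ends within the stretch where the nearly identical Bex4 window holds CACGTG, and bases past the Bex1 start were not searched. The MEF2 consensus, searched on both strands, matched 2.92% of all windows and none of those of the listed family genes. These letter matches describe the windows and do not show that a factor binds there.

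The genes nearest to Tceal7 in pattern were all muscle genes. By the Euclidean distance over the 4 libraries between log2(FPKM + 1) values centred on the scrambled mean, the nearest of the genes tested was Myoz2, a Z-disc gene, at a distance of 0.15. It was at 3.04 and 2.35 FPKM in siMEF2A and 12.4 and 11.9 FPKM in scrambled, or 22.1% of the scrambled mean. Smpx, a small muscle protein gene elsewhere on the X chromosome, followed at 0.18, with 22.5% of its scrambled level. Tnni1, the slow skeletal troponin I gene, was at a distance of 0.35 with 33.0% of its scrambled level. The myoglobin gene Mb and Tnni2, the fast troponin I gene, came next, at 24.6% and 32.8% of scrambled. With 4 libraries in 2 groups, this measure mostly ranks genes by the size of their fall.

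**Figure D3:**
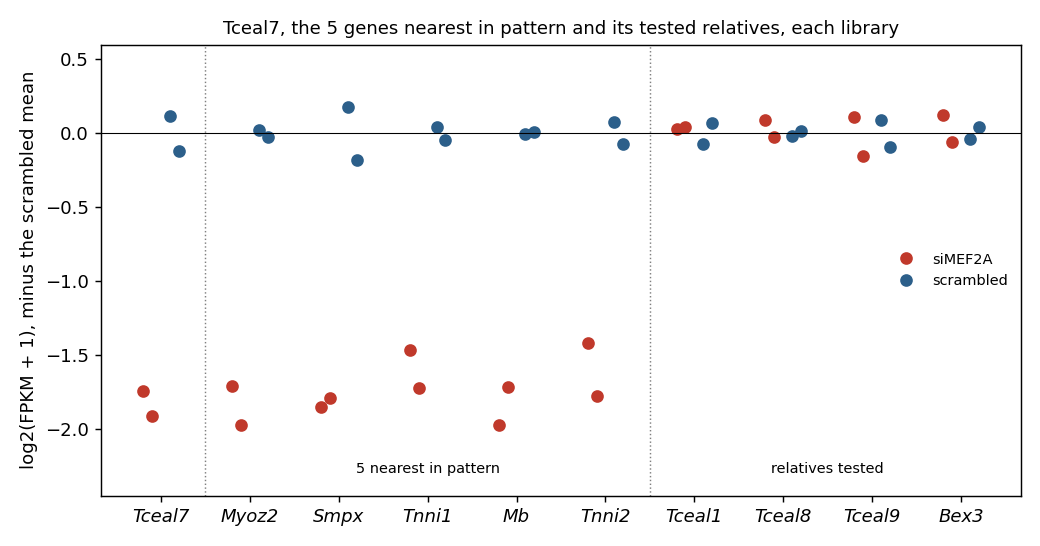
Log2(FPKM + 1) minus the scrambled mean in each library, with siMEF2A in red and scrambled in blue, for Tceal7, the 5 genes nearest to it in pattern, and the 4 Tceal and Bex genes other than Tceal7 with a mean of at least 1 FPKM. The siMEF2A points of Tceal7 and its nearest genes lie between -1.98 and -1.42, and those of the 4 other family genes between -0.15 and 0.13.

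The genes of related function gave few calls. Of the myogenic factors reported to act on Tceal7, Myog was at 80.5 and 86.2 FPKM in siMEF2A and 126 and 138 FPKM in scrambled, and it fell (log2 fold change -0.66, SE 0.17, limma adjusted p = 0.0284). Myog no longer passed once siMEF2A replicate 1 (limma adjusted p = 0.470), siMEF2A replicate 2 (0.181) or scrambled replicate 2 (0.127) was dropped. Nor did it pass with quantile-normalized values (0.0925), with low genes kept (0.0561) or with the most abundant transcript only (0.0684). Myod1 was at 71.6% of its scrambled level with groups that did not overlap (limma adjusted p = 0.171), and Myf5 was at 93.8%, also without overlap (1.00). Over all genes tested, 9.13% were lower without overlap. Myf6 was below 1 FPKM in every library and was not tested. Of these 3 tested factors 1 fell and 0 rose, beside 1.32% of all genes called lower and 0.406% called higher.

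Of 6 genes of the S-II and elongin transcription elongation factors 6 were tested and 0 passed, beside 1.73% of all genes tested. Tcea1, the broadly expressed S-II gene, was at 105% of its scrambled level and Tcea3, a gene of the same family, at 84.3% with groups that did not overlap. Of 3 genes reported downstream of TCEAL7, Ccnd1, the cyclin D1 gene, which human TCEAL7 was described to repress, was at 9.01 and 8.82 FPKM in siMEF2A and at 5.85 and 6.89 FPKM in scrambled. That was 140% of scrambled with groups that did not overlap, and it did not pass (log2 fold change 0.43, SE 0.15, limma adjusted p = 0.233). Myc was at 102%, also without overlap, and Cdkn1b, the gene of the cell cycle inhibitor p27, at 110% of scrambled, and neither passed (limma adjusted p = 1.00 for both). Over all genes tested, 18.8% were higher and 9.13% lower without overlap. The log2 fold change of Myc was 0.021 as reported. It was below 0 under median-ratio (-0.026), upper-quartile (-0.014) and quantile (-0.017) scaling.

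**Figure D4:**
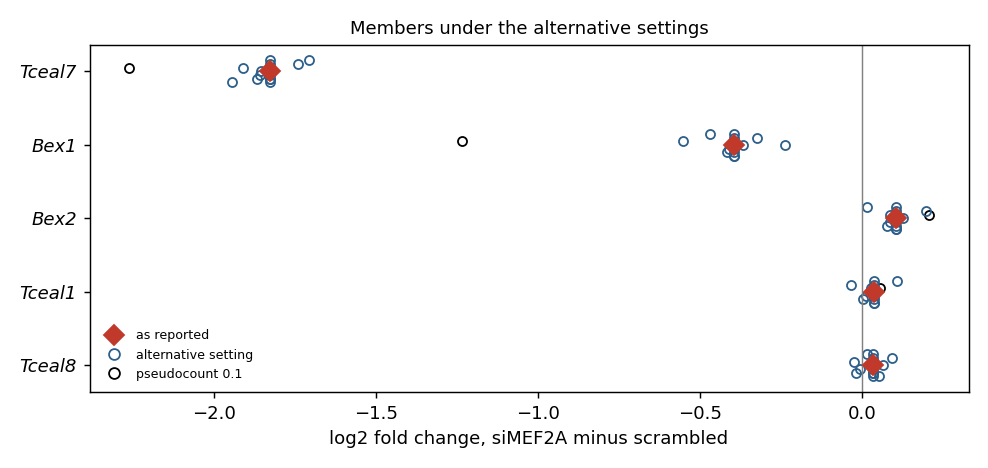
Log2 fold change (siMEF2A minus scrambled) of the 5 listed members as reported (red diamonds) and under the alternative settings (open circles, black for a pseudocount of 0.1). Tceal7 ran from -2.26 to -1.71, Bex1 from -1.23 to -0.24, and Tceal1 and Tceal8 lay on either side of 0.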

How the data were processed

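The deposited tables held the authors' FPKM, 1 table per library and 1 line per Ensembl transcript. Cufflinks, TopHat, Bowtie, Trimmomatic, CASAVA and mm10 appear in the submitters' processing notes, but their settings, the annotation and any scaling between libraries were not given in these sources. Depth is unknown in absolute terms. The commonest ratio of low FPKM values put siMEF2A libraries at 0.849 and 0.848 and scrambled replicate 2 at 1.04 of the depth of scrambled replicate 1, from only 8 to 15 of 600 genes.

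FPKM were summed per symbol, 26 small RNA symbols were dropped, and the 11824 genes averaging 1 FPKM or more were tested as log2(FPKM + 1), without further scaling, with limma 3.58.1 in R 4.3.3 (intensity trend, two-sided, Benjamini-Hochberg over all genes, 2 residual and 29.7 prior degrees of freedom). Transcript lengths came from GENCODE M21 on the same build (97.3% of transcripts matched), and similar copies were sought with blastn 2.17.0. Named genes were the members, the family, genes within 1 Mb, lists of related function, of which 1 is not reported here, and the 5 nearest patterns. Members and lists were chosen with earlier results of these data known. Alternatives covered scaling, pseudocount, filters, variance model, transcripts, left-out libraries and a replicate block; for Tceal5, Bex1 and Bex2 they were also run without a filter, chosen after the values were seen.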

Additional observations from a re-analysis of the deposited data

How the results depend on the processing

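Over the 15 alternatives, Tceal1 and Tceal8 were called in neither direction wherever they were tested, and Bex1 and Bex2 had a test only without a filter, which called neither. Further, the median of the 4 relatives stayed between -0.011 and 0.056. It was below 0 under median-ratio scaling (-0.010) and without scrambled replicate 1 (-0.011). Tceal7 was lower in all 15, from -2.26 (pseudocount 0.1) to -1.71. Over all genes, 48 were called higher and 156 lower. Higher calls numbered 14 under median-ratio scaling, 14 under upper-quartile scaling, 11 under quantile normalization, 29 with a pseudocount of 0.1, 29 without a filter, 23 with small RNA symbols kept, 25 without a trend and 73 with robust moderation. Leaving out 1 library gave 41 to 74 higher and 134 to 158 lower. A minimum of 5 FPKM gave 98 lower calls. The share of lower calls was 76.5% as reported against 90.4% with median-ratio or upper-quartile factors and 90.7% with quantiles. Over transcripts, 7 were called higher and 46 lower, with 4 higher under each of the 3 scalings and 3 with a pseudocount of 0.1. With the replicate number as a block, 217 genes were called higher and 289 lower, with neither Tceal1 nor Tceal8 among them. In that fit Ccnd1 (limma adjusted p = 0.0143) was higher and Myod1 (0.0116) lower. Deviations of same-numbered libraries correlated at 0.29 across genes, and the labels do not say that numbers pair libraries. The numbers are those of the sample titles, and a second numbering by the submitters differs for the scrambled libraries. In the fits without a filter, Bex1 was called in 2 of 11 further settings and Tceal5 in 9 of 11. The cause of these shifts was not tested. Genes under 1 FPKM rest on few fragments, so their ratios are imprecise and absence of a call there shows little.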
